A study of Bos taurus with 8 samples.

Results

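The miR-199 and miR-214 entries of rumen fluid were examined, which are the mature miRNAs bta-miR-199a-5p, bta-miR-199a-3p, bta-miR-199b, bta-miR-199c and bta-miR-214. They were taken by name from the read count tables of 8 libraries, and all 5 were found among the 565 entries listed there. All 5 also passed the filter on low values, 10 or more reads in any library, as did 377 entries. The libraries were small RNA of rumen fluid from 4 non-lactating, ruminally cannulated Holstein adult cows, each sampled 4 h after being fed in the morning. Forage replicates 1 to 4 were taken on day 7 of a diet of grass silage, corn silage and hay without concentrate. HG (high-grain) replicates 1 to 4 came from day 1 on the diet with 65% concentrate, which the cows reached stepwise. Replicates of the same number were taken as 1 cow, since the same animals were sampled on each diet. Each animal therefore gave 1 library per diet. The cows were also controls of a parallel trial.

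A miRNA is processed from a hairpin, whose arms are named 5p and 3p after their side of the loop, and it lowers the translation and stability of messenger RNAs that pair with its seed. Family members miR-199a and miR-199b differ little in their 5p arms, have the same seed there, and give the same 3p sequence. In mammals their genes lie within dynamin genes (DNM), and miR-199a and miR-214 are made together from a long transcript antisense to DNM3. They are known from mesenchymal cells such as fibroblasts, smooth muscle and cartilage, and in liver from stellate cells, where miR-214 and miR-199 are studied in fibrosis. In a digestive fluid such miRNAs can come from shed tissue, saliva, blood or vesicles. The level in a fluid does not separate more cells from more RNA per cell.

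In the RefSeq table of bovine genes, whose assembly is ARS-UCD2.0 and from which no coordinates are taken, 5 hairpin genes of the family were matched. MIR199A-1 and MIR214 both lie inside DNM3 on chromosome 16, and both also lie inside the long non-coding RNA gene LOC132342463. MIR199A-2 lies inside DNM2 on chromosome 7 and MIR199B inside DNM1 on chromosome 11. MIR199C is the exception, since it lies inside NUP88, a nuclear pore gene, on chromosome 19 and in no dynamin gene. Whether these places are exonic or intronic was not determined, because the table gives no exons.

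The tables of the libraries give each entry a position on the assembly UMD3.1. Bta-miR-214 was placed on chromosome 16 from 40485877 to 40485898, bta-miR-199b on chromosome 11 from 98867672 to 98867694 (both minus strand), and bta-miR-199c on chromosome 19 from 26741758 to 26741777 (plus strand). Bta-miR-199a-3p was printed at 16:40491671-40491692 in 5 libraries and at 7:16508972-16508993 in 3. For bta-miR-199a-5p the same chromosomes alternated, with 7:16508931-16508952 in 6 libraries and 16:40491632-40491653 in 2. The bta-miR-199a reads therefore could not be assigned to DNM2 or DNM3. These positions carry a further limit, since in the tables the 5p arm had the lower coordinate in 28 of 28 minus-strand hairpins with both arms listed, as it had in 45 of 45 on the plus strand. A 5p arm on the minus strand should have the higher coordinate, so minus-strand positions locate the hairpin but not the arm within it.

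The entries differed in how far their reads were shared. All reads of bta-miR-199b were its own. The reads of bta-miR-214 were those of the human entry hsa-miR-214-3p in all 8 libraries, an entry of the 3p arm, and each was divided between 2 entries in the authors' divided count. Reads of bta-miR-199a-5p were divided by 3 in that count, to rounding, and those of bta-miR-199c by 4. No other listed entry had the same reads as either in all 8 libraries, so what they were divided among is not shown. If the reads of bta-miR-199c were a part of those of bta-miR-199a-3p, and the rest of bta-miR-199a-3p were divided by 3, the divided count of bta-miR-199a-3p would follow. It did to within 0.01 reads in 2 libraries, forage replicate 1 and HG replicate 2, and differed by 0.667 to 1.33 reads in the other 6. These values do not settle whether the reads of bta-miR-199c are also counted at bta-miR-199a-3p, so bta-miR-199c was left out of sums to avoid counting reads again.

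Of the 5 entries, bta-miR-199a-3p was by far the most abundant. It had 15635 reads over the 8 libraries and ranked 37 among the 399 bovine entries listed, followed by bta-miR-199b with 2044 reads (rank 106), bta-miR-199a-5p with 1651 (rank 114), bta-miR-214 with 284 (rank 168) and bta-miR-199c with 130 (rank 213). Without bta-miR-199c they held 19614 reads, 0.609% of all miRNA reads, of which 79.7% were bta-miR-199a-3p. Their summed share was 0.601% ± 0.0291 (SD, n = 4) in forage libraries, against 0.620% ± 0.0619 (SD, n = 4) in HG libraries. The higher HG mean rests on HG replicate 2 with 0.712%, since the other HG libraries had 0.587%, 0.581% and 0.598%, each below the forage mean. The 5p arm of the miR-214 hairpin, listed as hsa-miR-214-5p, had 2 reads in each of 4 libraries and was not listed in the other 4. The tables list no entry with fewer than 2 reads.

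**Figure D1:**
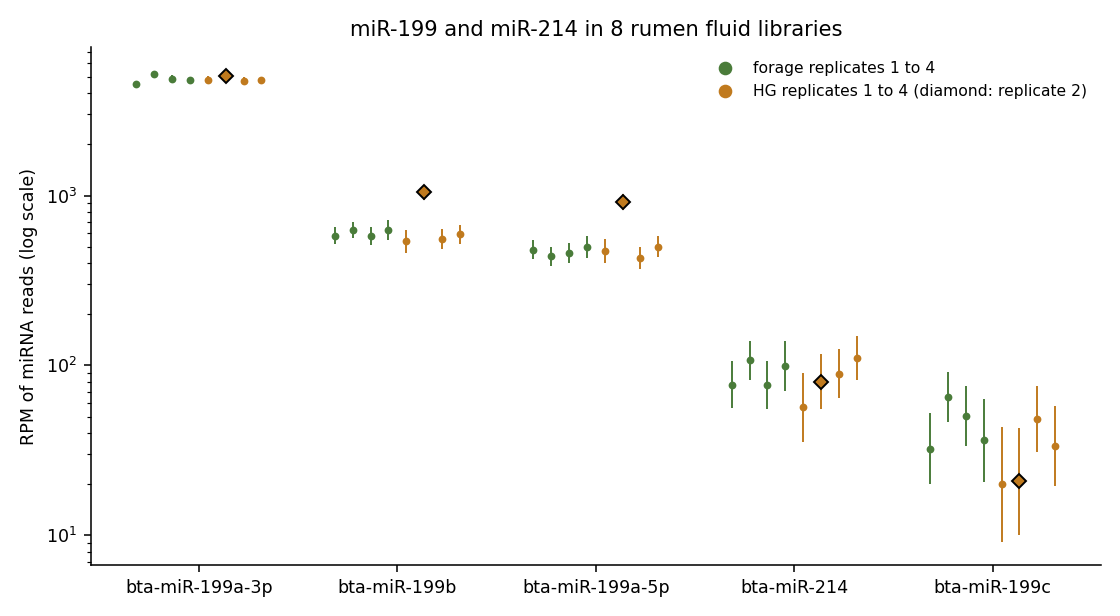
Reads per 1000000 miRNA reads (RPM, log scale) of each entry in forage replicates 1 to 4 (green) and HG replicates 1 to 4 (orange, with a diamond for replicate 2), with 95% Wilson intervals. The 8 libraries of bta-miR-199a-3p lie between 4533 and 5214 RPM, and HG replicate 2 stands above the others for bta-miR-199b and bta-miR-199a-5p.

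The libraries held 300116 to 522804 miRNA reads, which were 6.67% to 29.3% of all their reads. HG replicate 2 stood apart from the rest: its root mean square log2 ratio to the median of the 7 other libraries was 0.77 over the 221 bovine entries with at least 100 reads, against 0.16 to 0.25 in each of the others. Results are therefore given with and without it. Intervals of single libraries are 95% Wilson intervals and cover counting error alone, since amplified reads are not independent molecules.

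Bta-miR-199a-3p, the entry of the family with the most reads here, kept close to the same rank in all libraries. On the forage diet replicates 1 to 4 held 2240, 2726, 2226 and 1585 reads, or 4533, 5214, 4881 and 4776 reads per 1000000 miRNA reads (RPM). On the HG diet they held 1443, 1706, 1853 and 1856 reads, or 4808, 5075, 4742 and 4782 RPM. The diets overlapped, the highest value was that of forage replicate 2, and HG replicate 2 was second. Its rank among bovine entries was 37 or 38 in each library. Over the 7 libraries other than HG replicate 2 its coefficient of variation was 4.24%, above the 2.24% that counting error alone would give.

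Bta-miR-199a-5p, from the 5p arm of the miR-199a hairpins, was at similar levels in 7 libraries and higher in HG replicate 2. On the forage diet replicates 1 to 4 held 237, 229, 209 and 165 reads, or 480, 438, 458 and 497 RPM. On the HG diet the reads were 141, 309, 167 and 194, or 470, 919, 427 and 500 RPM. The value of HG replicate 2 was 1.96-fold the median of the 7 others, and its interval of 822 to 1028 RPM lay above the intervals of all others, which reached 579 RPM. Its rank went from between 111 and 116 to 94. Among the 7 others the coefficient of variation was 5.96%, where counting error alone at their mean depth would give 7.22%.

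Bta-miR-199b, read from the DNM1 locus without sharing, had the same shape. It had 287, 326, 264 and 209 reads in forage replicates 1 to 4 (581, 624, 579 and 630 RPM). In HG replicates 1 to 4 it had 161, 351, 217 and 229 (536, 1044, 555 and 590 RPM). HG replicate 2 was 1.80-fold the median of the others, with an interval of 941 to 1159 RPM against intervals that reached 721 RPM elsewhere. Without HG replicate 2 the HG mean was 561 ± 27.2 RPM (SD, n = 3), beside a forage mean of 603 ± 27.2 RPM (SD, n = 4).

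Bta-miR-214, which shares the DNM3 locus with miR-199a, did not stand out in HG replicate 2. Forage replicates 1 to 4 had 38, 56, 35 and 33 reads (76.9, 107, 76.7 and 99.4 RPM) and HG replicates 1 to 4 had 17, 27, 35 and 43 (56.6, 80.3, 89.6 and 111 RPM). The lowest and the highest library were both on the HG diet, and HG replicate 2 was above 3 of the 7 others in RPM. With so few reads the coefficient of variation of the 7 others was 21.97%, against 16.5% from counting error alone. Bta-miR-199c had 16, 34, 23 and 12 reads on the forage diet (32.4, 65.0, 50.4 and 36.2 RPM) and 6, 7, 19 and 13 on the HG diet (19.99, 20.8, 48.6 and 33.5 RPM). Its diets overlapped, although each cow had a lower RPM on the HG diet.

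The order of the levels was the same in all 8 libraries. Bta-miR-199a-3p was 4.86 to 8.96 times as abundant as bta-miR-199b, and bta-miR-199a-5p 4.09 to 11.4 times as abundant as bta-miR-214, with no overlap of their ranges. The pair bta-miR-199b and bta-miR-199a-5p was close, with ratios of 1.14 to 1.42, and their ranges over libraries overlapped. So did those of bta-miR-214 and bta-miR-199c, with ratios of 1.52 to 3.86. Ligation of adapters differs between sequences, so a ratio between different miRNAs compares read numbers and not molecules.

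Ratios within a library do not depend on the scaling between libraries. The ratio of bta-miR-199a-3p to bta-miR-199a-5p was 9.45, 11.9, 10.7 and 9.61 in forage replicates 1 to 4. In HG replicates 1 to 4 it was 10.2, 5.52, 11.1 and 9.57. The 7 libraries thus had 9.45 to 11.9 reads of the 3p entry per read of the 5p entry, and HG replicate 2 had fewer. Because miR-199b gives the same 3p sequence, the 3p entry can also hold reads of the miR-199b hairpin, and the ratio does not compare the arms of 1 hairpin. As a share, bta-miR-199a-5p made up 15.3% of the summed reads of both entries in HG replicate 2 (interval 13.8% to 17.0%), and 7.75% to 9.57% in the others, with intervals that reached 10.9%. Between diets the log2 ratio changed by −0.24 (exact permutation test with sign changes within cow, two-sided, p = 0.875), with a lower ratio under HG in 2 of 4 cows. With 4 cows this test cannot give a p below 0.125. Without cow 2 the change was 0.06.

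**Figure D2:**
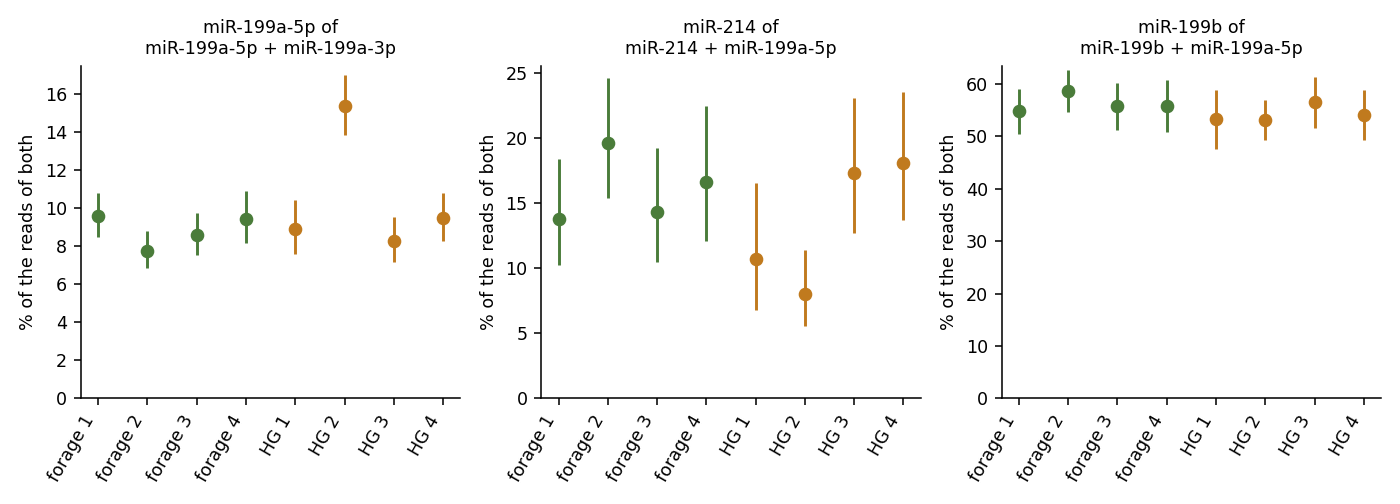
Share of the first miRNA in the reads of a pair, in percent, for each library (forage green, HG orange), with 95% Wilson intervals. The share of bta-miR-199a-5p beside bta-miR-199a-3p is 15.3% in HG replicate 2 and at most 9.57% elsewhere, while the share of bta-miR-199b beside bta-miR-199a-5p stays between 53.2% and 58.7%.

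Both 5p entries of the family were higher in HG replicate 2 than in the other libraries, and their ratio to each other was not. Bta-miR-199b made up 53.2% to 58.7% of the summed reads of bta-miR-199b and bta-miR-199a-5p, and the 53.2% of HG replicate 2 was next to the 53.3% of HG replicate 1. Bta-miR-199a-3p had 4.24 to 4.91 reads per read of this sum in 7 libraries and 2.58 in HG replicate 2. The ratio of bta-miR-214 to bta-miR-199a-5p was 0.1603, 0.245, 0.167 and 0.2 in forage replicates 1 to 4 and 0.121, 0.0874, 0.210 and 0.222 in HG replicates 1 to 4. HG replicate 2 was lowest, but its share of 8.04% for bta-miR-214 (interval 5.58% to 11.4%) overlapped that of HG replicate 1 at 10.8% (6.83% to 16.6%). Between diets this log2 ratio changed by −0.36 (exact permutation test within cow, two-sided, p = 0.625), again lower in 2 of 4 cows, and by 0.02 without cow 2. The 309 reads of bta-miR-199a-5p there could not be divided between the loci in DNM2 and DNM3.

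The question of a diet effect was put to all 377 entries with edgeR's quasi-likelihood test, with cow and diet in the model and Benjamini-Hochberg adjustment. At an adjusted p under 0.05 it called 0 of the 5 entries, where the percentage called over all entries was 0%. At an unadjusted p under 0.05 there were also 0 of 5, against 9 of 377 or 2.39%. DESeq2 called 0 entries as well, with 3 of 377 at an unadjusted p under 0.05, none of them among the 5. The adjusted p (edgeR) of the 5 lay between 0.788 and 0.924.

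Bta-miR-199a-5p went from 304 ± 15.3 to 398 ± 194 CPM (TMM-normalised counts per 1000000 over all entries; SD, n = 4). Its log2 fold change was 0.30 with a standard error of 0.25, and 2 of 4 cows had the higher RPM under HG. Bta-miR-199b went from 391 ± 19.0 to 468 ± 209 CPM, a log2 fold change of 0.18 (standard error 0.20), higher in 1 of 4 cows. Both fold changes turned negative without cow 2, at −0.04 and −0.09. Bta-miR-199a-3p changed by 0.05 (standard error 0.05), or 0.01 without cow 2. Bta-miR-214 changed by −0.06 (standard error 0.19) and by 0.03 without cow 2 and 0.04 without cow 1. Bta-miR-199c changed by −0.54 (standard error 0.34), lower in 4 of 4 cows, and by −0.22 without cow 2. As shares of miRNA reads, the exact permutation test within cow gave two-sided p-values of 0.875 for bta-miR-199a-5p, 1.0 for bta-miR-199a-3p and bta-miR-199b, 0.625 for bta-miR-214 and 0.125, the smallest it can give, for bta-miR-199c. These p-values do not show that the levels were equal on both diets.

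**Figure D3:**
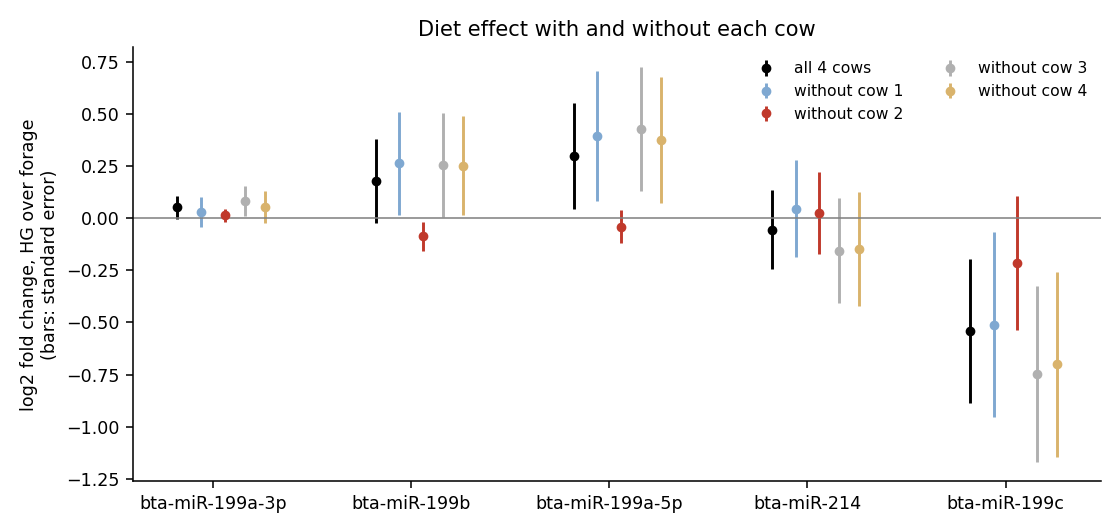
Log2 fold change of HG over forage (points) with its standard error (bars) from edgeR, with all 4 cows and with each cow left out. Without cow 2 the values of bta-miR-199a-5p and bta-miR-199b fall from 0.30 and 0.18 to −0.04 and −0.09.

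HG replicate 2 was next compared with the 7 other libraries in CPM, as a description of 1 library with no test. Of the 377 entries, 35.5% were higher there than in all 7 others and 30.5% were lower than in all 7. Of the 5 entries, 3 were higher than in all others and 0 were lower. The log2 ratio to the median of the others was 1.17 for bta-miR-199a-5p, 1.05 for bta-miR-199b, 0.29 for bta-miR-199a-3p, 0.05 for bta-miR-214 and −0.50 for bta-miR-199c. From the highest, these were places 19, 24, 71, 102 and 194 among the 221 bovine entries with at least 100 reads. The place of bta-miR-199a-3p above all others held in CPM alone, since in RPM of miRNA reads forage replicate 2 was higher.

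**Figure D4:**
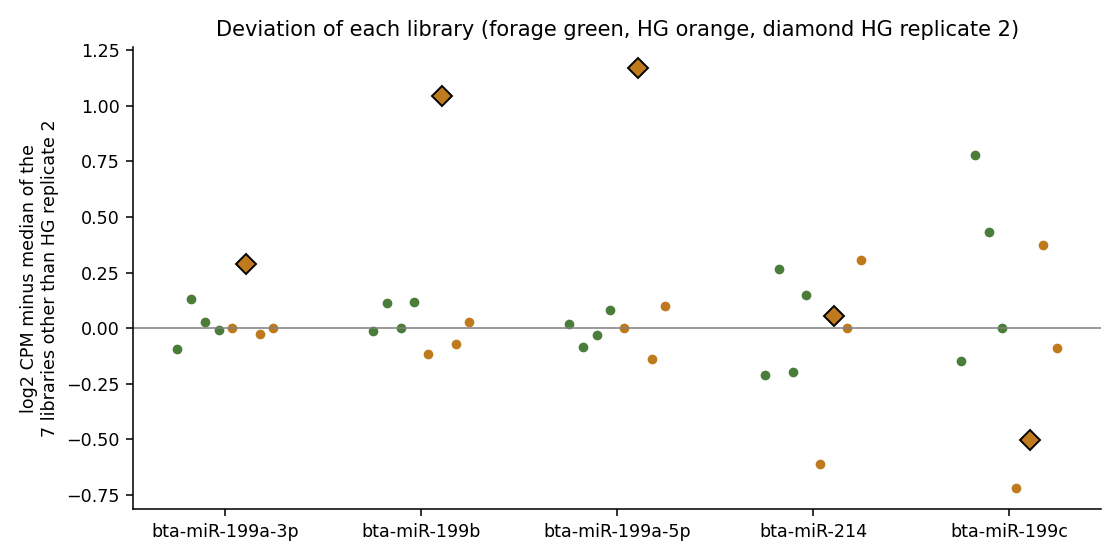
Log2 CPM of each library minus the median of the 7 libraries other than HG replicate 2 (forage green, HG orange, HG replicate 2 as a diamond). Bta-miR-199a-5p and bta-miR-199b reach 1.17 and 1.05 in HG replicate 2, bta-miR-214 is at 0.05 and bta-miR-199c at −0.50.

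Other miRNAs known from mesenchymal or stromal cells were set beside them, as a list of 15 miRNAs of which all 15 were detected. The edgeR test of the diet called 0 of the 15 in either direction. Their median log2 fold change was 0.08, beside 0.03 over all 377 entries, and 0.003 without cow 2, beside 0.005. In HG replicate 2 their median log2 ratio was 0.30, beside −0.03 over all entries, and 9 of 15 were higher and 2 of 15 lower than in all other libraries. At the top were bta-miR-455-5p, an miRNA of cartilage, with 3.19 (28 of its 48 reads were there), and bta-miR-152, which targets a DNA methyltransferase, with 1.53. At the bottom were bta-miR-382 with −0.75 (3 reads there) and bta-miR-379 with −0.29. The smooth muscle pair bta-miR-143 and bta-miR-145 had 0.65 and 1.096.

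Markers of other cell types moved in HG replicate 2 as well, and their part in the result was not tested. The background for these counts is the 35.5% of all entries that were higher there than in all others and the 30.5% that were lower. Of 8 epithelial miRNAs 7 were detected, bta-miR-203 being unlisted, and 6 of these 7 were higher there than in all others. Their summed level was 31200 RPM there and 22054 to 22803 RPM in the others. The endothelial arms bta-miR-126-3p and bta-miR-126-5p, 2 of 2 detected, were both higher, with a sum of 7672 against 4913 to 5486 RPM. All 3 erythrocyte miRNAs were lower, at 149756 against 198457 to 206066 RPM. Among 6 leukocyte miRNAs 2 were higher and 4 lower, with a sum of 18655 against 22587 to 23323 RPM, or 33.3% higher and 66.7% lower. Of 5 striated muscle miRNAs 3 were kept, of which 1 was higher and 2 lower (33.3% and 66.7%), with a sum of 5001 against 6433 to 7617 RPM. The mesenchymal list itself summed to 97955 RPM against 73865 to 79645 RPM, most of it bta-miR-143.

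**Figure D5:**
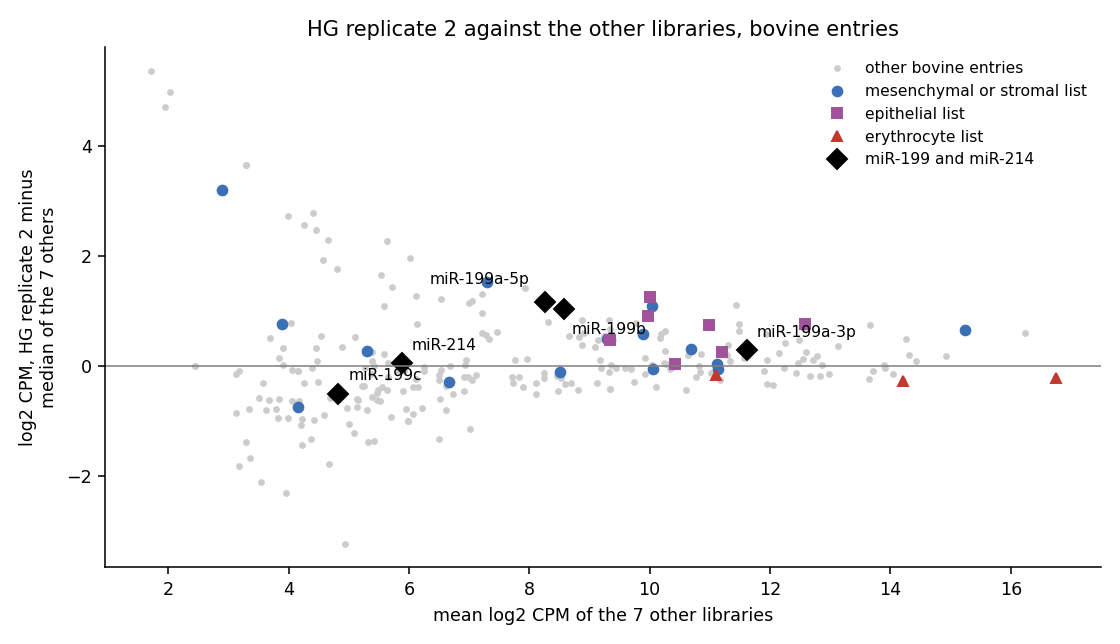
Log2 CPM of HG replicate 2 minus the median of the 7 other libraries (vertical) against the mean log2 CPM of those libraries (horizontal) for the bovine entries. Bta-miR-199a-5p and bta-miR-199b lie above 1, as do 1 of 7 epithelial and 3 of 15 mesenchymal miRNAs and 30 of all 268 bovine entries, bta-miR-199a-3p lies at 0.29, and the 3 erythrocyte miRNAs lie below 0.

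For bta-miR-199a-5p, bta-miR-199a-3p and bta-miR-214, the entries whose log2 CPM followed them most closely were sought among 216 bovine entries with at least 100 reads, as Pearson's r over 8 libraries that share depth and scaling. For bta-miR-199a-5p they were bta-miR-31 (r = 0.992), bta-miR-23a (0.992), bta-miR-27b (0.988), bta-miR-378 (0.988) and bta-miR-126-5p (0.988). Without HG replicate 2 these correlations were 0.762, 0.786, 0.603, 0.580 and 0.611 over 7 libraries. For bta-miR-199a-3p the first 5 were bta-miR-142-3p (0.902), bta-let-7f (0.902), bta-miR-2284x (0.900), bta-miR-374a (0.896) and bta-miR-106b (0.889), and 0.552 to 0.799 without HG replicate 2. For bta-miR-214 they were bta-miR-302a (0.817), bta-miR-302c (0.736), bta-miR-495 (0.732), bta-miR-497 (0.727) and bta-miR-421 (0.675), and 0.742 to 0.970 without it. Of the first 20 entries of each, bta-miR-199a-5p and bta-miR-199a-3p shared 7, while bta-miR-214 shared 0 with either. Without HG replicate 2, a setting chosen after seeing the data, bta-miR-199a-5p and bta-miR-199a-3p shared 0, and bta-miR-214 shared 1 with the former and 4 with the latter. Among the members, bta-miR-199a-5p and bta-miR-199b had r = 0.971 over 8 libraries and 0.289 without HG replicate 2, so that their likeness rested on that library. Bta-miR-199a-5p and bta-miR-199a-3p had 0.801 over 8 libraries and −0.306 without it. Bta-miR-214 had 0.132 and 0.112 with bta-miR-199a-5p, 0.295 and 0.377 with bta-miR-199a-3p, and 0.277 and 0.783 with bta-miR-199b.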

How the data were processed

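Rumen fluid small RNA libraries (NETflex kit) were demultiplexed by the authors with bcl2fastq 2.20, trimmed with Skewer, freed of reads under 15 bases or under a mean quality of 20, and assigned with sRNAbench and Bowtie (2 mismatches) to UMD3.1 and miRBase (bovine and human). Per library the authors deposited a read count per mature entry, with shared reads counted in full at each, and an expected count, with shared reads divided. The deposited RPM of all reads and a score, RPM of miRNA reads, were used to recover read totals. The series table of normalised signal was checked against the deposited divided counts, rounded to whole numbers, over 1 factor per library. The 2 were equal for 377 of 377 entries, within 0.1% of the value (or of 1, for values under 1).

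For the diet test, edgeR 4.0.16 was run on the read counts under R 4.3.3 (TMM, quasi-likelihood test, model cow + diet, at least 10 reads in 1 library, Benjamini-Hochberg adjustment, two-sided), with DESeq2 1.42.0 as an alternative. The test was checked on simulated data. The exact permutation tests used scipy 1.17.1. Log2 CPM had a prior count of 2. Depth was 300116 to 522804 miRNA reads per library.

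The pairing rests on the labels and the design, since deviations of same-numbered libraries correlated at −0.09 to 0.05. The members, the lists and the alternatives were chosen with earlier results of these data known. Named are the members, entries with their reads, the 5 entries most like 3 of them, and the 2 highest and 2 lowest of the mesenchymal list in the library farthest from the others. Bta-miR-143 and bta-miR-145 of that list were named after their values were seen, as were the other cell type lists' members. Mature sequences are not used here.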

Additional observations from a re-analysis of the deposited data

Results flagged for a closer look

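Among the 20 groups of 4 libraries examined for a library far from the rest (5 members and 5 ratios on 2 diets), 2 passed the 95% critical value of Dixon's test. Chance flags about 1 in 20 independent groups, but these share members and libraries, so the 2 flags cannot be set against that rate. In both flagged groups the library was HG replicate 2. Bta-miR-199a-5p had 919 RPM of miRNA reads there and 427 to 500 RPM in the other HG libraries, a gap of 0.853 of the range. Bta-miR-199b had 1044 RPM there and 536 to 590 RPM in the others, a gap of 0.894. For bta-miR-199a-3p the same library gave 0.801, and for the ratio of bta-miR-199a-3p to bta-miR-199a-5p 0.726, both below the critical value.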

How the results depend on the processing

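Of 128 alternative values, 109 kept their direction and call, 18 changed direction and 1 count moved. The diet count was 0 in 9 of 10 alternatives and 2 without replicate 2 (bta-miR-2285ak-5p and bta-miR-2285bh). The smallest edgeR adjusted p was 0.0281 there, 0.263 to 0.906 in the other edgeR alternatives and 0.999 with DESeq2. Bta-miR-199c could not be fitted on divided counts, where it has under 10 reads. Depth limits bta-miR-199c and bta-miR-214, with 130 and 284 reads in all.

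Leaving out each cow (without replicate 1, 2, 3 or 4), the log2 fold change ranged from −0.041 to 0.43 for bta-miR-199a-5p, 0.014 to 0.082 for bta-miR-199a-3p, −0.088 to 0.26 for bta-miR-199b, −0.74 to −0.22 for bta-miR-199c and −0.16 to 0.044 for bta-miR-214, where it was 0.026 without replicate 2. The log2 ratio of bta-miR-199a-3p to bta-miR-199a-5p ranged from −0.35 to 0.056, and that of bta-miR-214 to bta-miR-199a-5p from −0.58 to 0.020. The cause was not tested.

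With no replicate block, which ignores the pairing, 0 entries were called and the log2 fold changes were 0.38 for bta-miR-199a-5p, 0.054 for bta-miR-199a-3p, 0.25 for bta-miR-199b, −0.53 for bta-miR-199c and −0.04 for bta-miR-214. With no replicate block and without HG replicate 2, an alternative chosen after seeing the data, bta-miR-199a-5p had −0.011, bta-miR-199a-3p −0.032 and bta-miR-199b −0.108.

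The HG minus forage difference in RPM of miRNA reads was 111 for bta-miR-199a-5p, 0.839 for bta-miR-199a-3p, 78.3 for bta-miR-199b and −5.72 for bta-miR-214. With all reads as denominator the first 3 were −9.68, −180 and −17.0. Leaving out 1 library, they ranged from −2.59 to 161 for bta-miR-199a-5p, −105 to 122 for bta-miR-199a-3p, −42.6 to 127 for bta-miR-199b and −14.5 to 3.51 for bta-miR-214. The lowest values of bta-miR-199a-5p and bta-miR-199b came without HG replicate 2, that of bta-miR-199a-3p without forage replicate 1, and the positive value of bta-miR-214 without HG replicate 1.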

Other observations

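The divided count of bta-miR-199c reached at most 8.50 reads in a library, so that the entry passes the minimum of 10 reads only where shared reads are counted in full. On its undivided 130 reads it made up 0.410% to 1.25% of the number of bta-miR-199a-3p reads, lowest in HG replicate 2. Bta-miR-199a-3p was read as 31 to 48 different sequences per library, bta-miR-199b as 8 to 13, bta-miR-199a-5p as 5 to 12 and bta-miR-214 as 5 to 15. In HG replicate 2, bta-miR-199a-5p had 7 sequences for its 309 reads and bta-miR-199b 10 for its 351, both numbers within the range of the other libraries. The reads per sequence were the highest there, with 44.1 for bta-miR-199a-5p (17.6 to 33.0 in the others) and 35.1 for bta-miR-199b (19.7 to 31.9).

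Against all reads of the library, bta-miR-199a-3p made up 319 to 1328 RPM, and bta-miR-199a-5p of HG replicate 2 made up 79.3 RPM, inside the 33.2 to 141 RPM of the other libraries. The share of miRNA reads in all reads was 8.62% in that library, beside 6.67% to 29.3% in the others.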
